A study of Mus musculus with 5 samples.

Results

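The genes described here are 34 members of the cell's programme for low oxygen and for glycolysis, chosen by symbol from the 27998 genes in the files of a single-cell RNA-seq study of mouse mammary glands. They comprise 3 transporters (Slc2a1, Slc2a3, Slc16a3), 14 glycolysis genes from Hk1 to Pkm, the regulator Pfkfb3 among them, the 2 genes that set the fate of pyruvate (Ldha, Pdk1), Hif1a with the oxygen sensors Egln1 and Egln3, and 12 genes named for roles downstream of hypoxia. BPK mice carried Brca1 wt/flox, Trp53 flox/flox and Krt14cre, and PK mice carried Brca1 wt/wt with the same Trp53 flox/flox and Krt14cre, so every animal in the study carried the floxed Trp53 alleles and the Cre. Krt14cre recombines in cells that have used the keratin 14 promoter, so the floxed alleles are not deleted in every cell of a gland. The 4 gland libraries came from BPK glands given 12 intraductal injections of vehicle (PBS/PEG, 1 library), PK glands given 12 injections of 4NQO (1 library) and BPK glands given 12 injections of 4NQO (replicates 1 and 2). 4NQO is 4-nitroquinoline 1-oxide, a chemical that damages DNA and is used as a carcinogen. The fifth library came from a BPK mammary tumor that formed after 24 injections of 4NQO, so tissue and number of injections cannot be told apart. The labels give neither the age of the mice nor how many animals a library pooled.

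Cells sense oxygen through prolyl hydroxylases, which mark the transcription factor subunit HIF1A for destruction while oxygen is present. When oxygen falls, HIF1A accumulates, pairs with its partner ARNT and binds core motifs such as ACGTG or its reverse complement near its target genes. Its classical targets raise glucose uptake, glycolysis and the export of lactate and acid, restrain the entry of pyruvate into mitochondria, and induce mitophagy, blood vessel growth and collagen maturation. Many glycolytic genes are also driven by growth signals, so their transcripts are not specific to low oxygen. In the mammary gland the luminal alveolar cells make milk, the luminal hormone-sensing cells carry the receptors for estrogen and progesterone, and the basal cells are contractile.

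The files held 34526 barcodes with 27383717 to 64169843 UMIs (unique molecular identifiers, counted transcripts) per library, and 31458 barcodes were kept after filters on genes, mitochondrial share and doublets. The median was 2523 to 4573 UMIs per barcode in the glands and 15195.5 in the tumor. Each kept cell was assigned to a class from marker genes that include no member. The tumor held 1510 epithelial cells, of which 1048 were keratinocyte-like, a class with Krt6a, Krtdap, Sbsn and other markers of stratified epithelium. BPK 4NQO replicates 1 and 2 held 44 and 55 keratinocyte-like cells among 4489 and 2329 epithelial cells, and BPK vehicle and PK 4NQO held 11 and 15, too few to give a level. The 13 keratinocyte markers summed to 8373, 13889 and 14632 CPM in keratinocyte-like cells from BPK 4NQO 1, BPK 4NQO 2 and the tumor, where CPM are counts per 1e6 UMIs of a class in a library. BPK 4NQO replicate 2 shared 1 or 2 cell barcodes with each other library, whereas the remaining pairs shared 26 to 107, and its library preparation may differ from the 3' v2 label. It had the highest of the 4 gland values in at least 6 of 7 classes for 9 of the 28 members that averaged at least 10 CPM, among them Hif1a, Hk2, Egln1, P4ha1 and Vegfa, and the lowest for Gapdh and Ldha. Over all 8571 genes at that level it was the highest for 31.8% and the lowest for 17%, so the 9 members are close to the share of all genes. The part of library preparation in these values was not tested.

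Of the 34 members, 31 matched a RefSeq promoter window (GRCm38.p6), and 20 of these held ACGTG or its reverse complement CACGT in the 250 bases before a transcript start. That is 64.5% of the matched members, against 18.5% of 27025 genes with the same window. The members were chosen for their roles in low oxygen and glycolysis, and the windows were not matched for base composition. The difference in share is therefore a description and not a test. The overlapping letters CACGTG count as 2 matches, 1 on each strand. Windows of 6 members are shown to let the motif be compared, with the matches in capitals. These members were higher in tumor epithelium, and their windows touch no annotated exon in GENCODE. Gapdh, Adm and P4ha1 also met this but are not shown. The window of P4ha1 held 1 match, and those of Gapdh and Adm held none.
Ldha, chr7:46845554-46845803, + strand: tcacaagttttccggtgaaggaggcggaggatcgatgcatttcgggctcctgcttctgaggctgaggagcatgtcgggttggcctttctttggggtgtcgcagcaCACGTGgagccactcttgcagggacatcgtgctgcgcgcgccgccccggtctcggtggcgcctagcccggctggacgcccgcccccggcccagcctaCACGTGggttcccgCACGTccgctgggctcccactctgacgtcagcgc
Pgk1, chrX:106186850-106187099, + strand: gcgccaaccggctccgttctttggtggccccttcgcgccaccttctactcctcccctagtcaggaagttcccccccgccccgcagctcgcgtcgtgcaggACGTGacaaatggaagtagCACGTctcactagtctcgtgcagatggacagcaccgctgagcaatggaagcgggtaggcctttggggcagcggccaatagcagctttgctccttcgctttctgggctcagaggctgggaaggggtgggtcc
Pgam1, chr19:41911621-41911870, + strand: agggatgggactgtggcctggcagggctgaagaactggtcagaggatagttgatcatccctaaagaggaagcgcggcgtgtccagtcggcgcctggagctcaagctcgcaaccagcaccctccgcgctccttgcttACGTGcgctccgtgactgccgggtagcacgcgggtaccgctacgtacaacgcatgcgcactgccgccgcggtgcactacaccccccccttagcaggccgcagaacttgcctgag
P4ha2, chr11:54100674-54100923, + strand: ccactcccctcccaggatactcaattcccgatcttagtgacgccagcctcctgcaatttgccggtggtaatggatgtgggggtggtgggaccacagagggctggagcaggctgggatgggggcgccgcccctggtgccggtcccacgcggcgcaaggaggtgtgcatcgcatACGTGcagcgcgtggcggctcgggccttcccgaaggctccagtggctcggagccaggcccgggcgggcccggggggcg
Eno1, chr4:150236458-150236707, + strand: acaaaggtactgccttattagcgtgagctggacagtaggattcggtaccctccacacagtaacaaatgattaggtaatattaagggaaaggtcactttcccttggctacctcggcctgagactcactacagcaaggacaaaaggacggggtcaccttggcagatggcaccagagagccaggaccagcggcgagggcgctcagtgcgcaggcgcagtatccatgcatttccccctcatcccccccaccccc
Car12, chr9:66713436-66713685, + strand: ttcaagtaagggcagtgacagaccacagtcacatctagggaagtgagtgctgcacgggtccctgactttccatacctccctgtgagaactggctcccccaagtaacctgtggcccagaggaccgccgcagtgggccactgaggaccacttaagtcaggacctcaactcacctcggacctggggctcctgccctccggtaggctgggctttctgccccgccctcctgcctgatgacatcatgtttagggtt
Ldha, which encodes the lactate dehydrogenase subunit that turns pyruvate into lactate, has 2 windows. The 1 shown held 5 matches, between 145 and 34 bases before the start, and the other held none. Pgk1, the kinase that makes the first ATP of glycolysis, held 2, at 150 and 131 bases. Pgam1, the mutase of the next step, held 1 at 114 bases, and P4ha2, a prolyl hydroxylase of collagen, held 1 at 78 bases. The windows of Eno1 (enolase) and Car12 (a carbonic anhydrase) held neither ACGTG nor CACGT. Other forms of the core motif, such as GCGTG, were not searched for. A match is a string of letters and not a measured binding site.

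To see where the members lie in the glands, each class was compared with the mean of the other 7, with the library as a block and 3 or 4 libraries per class. 164 of 264 member tests passed an adjusted p of 0.05 in edgeR's quasi-likelihood test, 90 higher and 74 lower, and 47.5% of all gene tests passed, so a call by itself is common here. Car9 had too few UMIs in the glands to be tested. Without PK 4NQO or a BPK 4NQO replicate the T cells had too few libraries, and 7 classes remained. Values given below without 1 of these libraries are therefore differences from another mean.

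Among transporters, Slc2a1, the basal glucose transporter, was higher in basal cells than in the mean of the other classes, at 60.9 CPM (BPK vehicle), 57.8 (PK 4NQO), 66.3 and 80.1 (BPK 4NQO replicates 1 and 2), the order kept for all gland values below. Alveolar cells were above them in replicate 2 alone, at 91.8 CPM. The log2 difference from the other classes was 1.34 ± 0.14 (SE), with an adjusted p of 4.2e-10. Slc16a3 encodes the lactate exporter MCT4 and was nearly without UMIs in luminal cells: alveolar cells held 0, 0, 1 and 0 UMIs in the 4 libraries, and hormone-sensing cells 2, 2, 8 and 0. Macrophages held it at 16.3, 17.1, 16.8 and 46.4 CPM, and all 4 values lay above those of both luminal classes. Slc2a3, a glucose transporter of high affinity, reached 27.4, 28.2, 16.0 and 14.1 CPM in pericytes and 0.755 to 9.10 CPM in hormone-sensing cells.

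The hexokinases, which trap glucose in the cell, divided by class. Hk2 was at 582, 399, 841 and 999 CPM in fibroblasts (BPK vehicle, PK 4NQO, BPK 4NQO 1 and 2) and at 174, 291, 447 and 627 CPM in macrophages. In endothelial cells it was at 1.4, 4.7, 4.3 and 21.2 CPM, below every fibroblast and macrophage value. Its log2 differences were 3.94 ± 0.17 (adjusted p = 1.2e-20) in fibroblasts, 2.94 ± 0.20 (5.8e-15) in macrophages and -4.17 ± 0.32 (3.1e-13) in endothelial cells. Without BPK 4NQO replicate 2 the endothelial difference was -4.89. Hk1, the widely expressed hexokinase, ranged from 22.4 to 96.7 CPM over the alveolar, hormone-sensing and basal classes, and hormone-sensing cells differed by 0.67 ± 0.11.

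Aldoc, an aldolase isoenzyme, was at 176, 221, 245 and 220 CPM in alveolar cells and at 52.5, 70.9, 80.8 and 67.5 CPM in hormone-sensing cells, against 11.2 to 16.4 in basal cells and at most 6.4 in fibroblasts, endothelial cells, pericytes and macrophages. The log2 differences were 5.25 ± 0.10 (adjusted p = 1.6e-29) and 3.27 ± 0.11 (7.7e-23) in the luminal classes. Aldoa, the common aldolase, lay between 248 and 611 CPM in all epithelial lineages of the glands and had the most UMIs of the upper glycolysis members there. Pfkfb3, which makes the allosteric activator of phosphofructokinase, was at 92.6, 92.4, 59.4 and 149 CPM in alveolar cells and at 93.0, 99.2, 91.3 and 155 in endothelial cells. In basal cells it was at 12.7, 11.4, 13 and 26.7 CPM, below every alveolar and endothelial value. The log2 differences were 1.62 ± 0.14 in alveolar, 1.57 ± 0.15 in endothelial and -1.48 ± 0.19 in basal cells. Pfkp, the platelet-type phosphofructokinase, was lower in hormone-sensing cells, by -2.61 ± 0.20, at 4.96 to 13.7 CPM.

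Among the enzymes of lower glycolysis, Gapdh was at 300 to 707 CPM in the alveolar, hormone-sensing and basal classes, and Ldha lay between 250 and 546 CPM in the same classes. Gapdh and Eno1 each have a near-identical copy in the files' gene list, and 6 members (with Pkm, Ldha, Bnip3 and Gpi1) have a copy at 98% identity over at least 90 of their last 500 transcript bases, so UMIs of these genes may have been split or dropped by the authors' counting. Pgk1 had few UMIs, at 1.2 to 3.3 CPM in epithelium of 3 libraries and 16.0 in BPK 4NQO replicate 2, and no such copy was found for it.

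Among the genes of the oxygen sensor, Egln3 was at 47.4, 58.1, 94.1 and 80.4 CPM in alveolar cells and at most 26.9 in the other 7 classes, a log2 difference of 3.91 ± 0.18 (adjusted p = 1.7e-19). Egln1, the main hydroxylase of HIF1A, was at 50.1, 46.6, 52.3 and 95.7 CPM in endothelial cells, with a difference of 1.72 ± 0.13. Hif1a itself was lowest in alveolar cells, at 36.8, 41.0, 31.9 and 86.6 CPM, with a difference of -1.77 ± 0.19 (5.3e-10). Pdk1, the kinase that switches off pyruvate dehydrogenase, was at 44.7, 32.5, 35.7 and 24.3 CPM in endothelial cells and 9.67 to 18.2 in the 3 epithelial lineages, a difference of 1.94 ± 0.19.

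Of the secreted members, Adm, the vasodilator peptide adrenomedullin, was at 153, 127, 170 and 127 CPM in fibroblasts and 51.1, 59.6, 63.5 and 34.5 in endothelial cells, against 8.06 to 27.0 in the epithelial lineages. The fibroblast difference was 3.90 ± 0.15 (adjusted p = 5.5e-22) and the endothelial one 1.97 ± 0.18, which was 1.32 without PK 4NQO. Vegfa, the main growth factor for blood vessels, was higher in basal cells (1.91 ± 0.18), fibroblasts (1.90 ± 0.20) and macrophages (2.09 ± 0.23). Without BPK 4NQO replicate 2 the differences were 1.31 in basal cells and 1.42 in macrophages, and without BPK 4NQO replicate 1 and PK 4NQO in turn the one in fibroblasts was 1.11 and 1.19. Hilpda, a lipid droplet protein, reached 663, 388, 682 and 324 CPM in macrophages, a difference of 3.12 ± 0.20 (1.7e-15). Ddit4, an inhibitor of mTORC1, was at 301, 252, 236 and 160 CPM in endothelial cells (1.92 ± 0.19) and at 247, 179, 337 and 174 in pericytes (1.90 ± 0.24), and at 6.5, 5.7, 35.7 and 3.6 in macrophages (-3.02 ± 0.40, and -3.77 and -2.35 without BPK 4NQO replicates 1 and 2). Ndrg1, a stress-induced gene that is mutated in an inherited neuropathy of Schwann cells, was higher in endothelial cells (1.64 ± 0.13) and lower in T cells (-2.79 ± 0.31), at 0 to 34.9 CPM. In Schwann cells, which were too few to be tested, it was at 1014, 1306 and 1411 CPM in the 3 libraries with at least 20 of them. The collagen hydroxylases P4ha1 and P4ha2 were highest in fibroblasts, with differences of 2.25 ± 0.12 and 4.77 ± 0.19, and no P4ha2 UMI was seen in T cells of any library. The fitted value of P4ha2 depends on those classes without counts: it was 3.42 to 4.17 when PK 4NQO or a BPK 4NQO library was left out. Pericytes and T cells were the classes whose median over all genes moved by more than 0.1 with other size factors, by 0.11 and 0.18 on the log2 scale. Pericyte differences of Tpi1, Ldha, Gapdh, Aldoa and Bnip3l, all between -0.56 and 0.63, each lost the call when 1 library was left out.

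**Figure D1:**
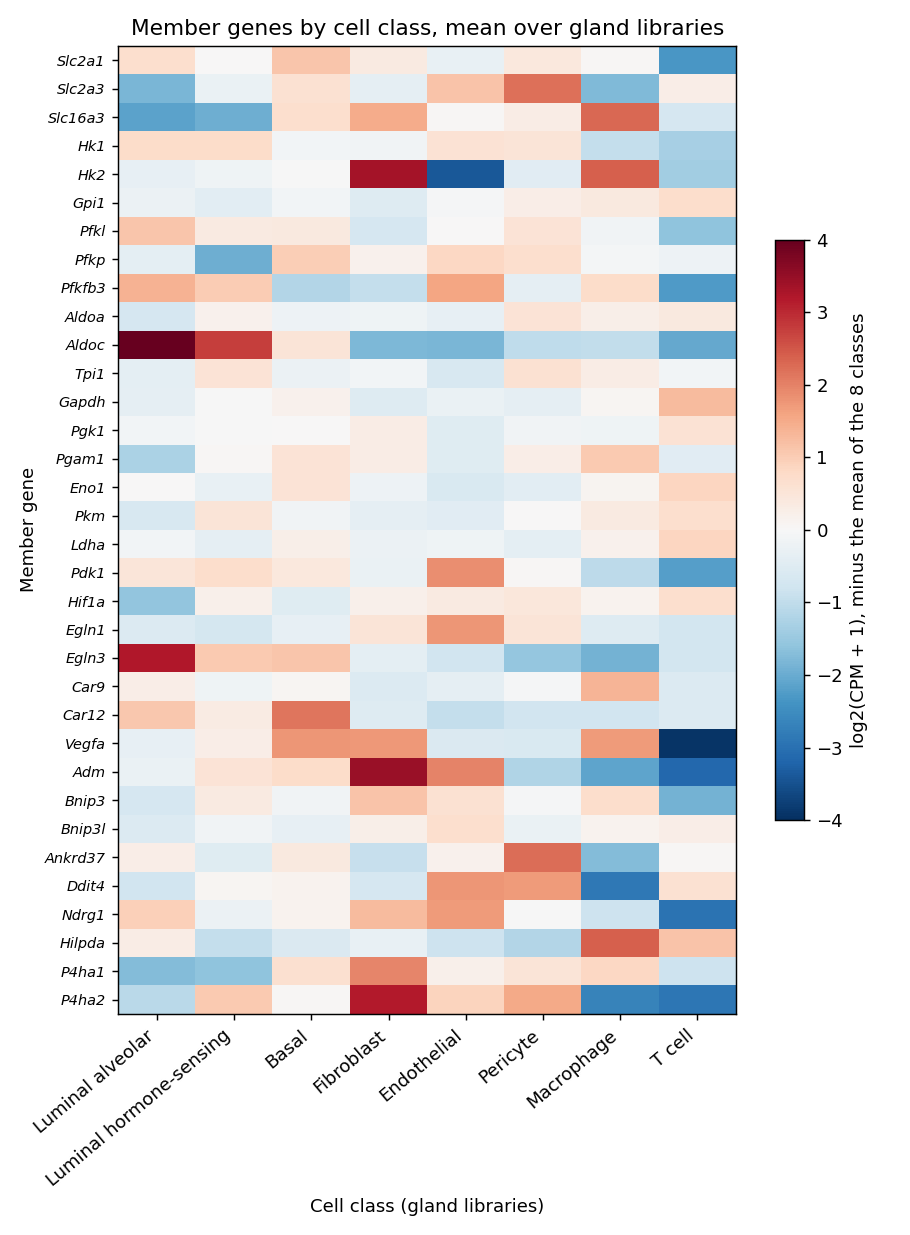
Level of each member in 8 cell classes of the gland libraries, as log2(CPM + 1) averaged over the libraries with at least 20 cells and centred on the mean of the classes. Red is higher and blue lower: Aldoc and Egln3 stand out in alveolar cells, Hk2, Adm and P4ha2 in fibroblasts, and Hk2 is lowest in endothelial cells.

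Injection of 4NQO was compared with vehicle in BPK glands, and BPK with PK among 4NQO glands, to ask whether the carcinogen or the floxed Brca1 allele moved the members within a class. These comparisons share the 2 BPK 4NQO libraries. The other groups had 1 library each and were assumed to vary as that pair did, which left 1 residual degree of freedom among samples. No member passed in either: 0 of 236 tests over 8 classes for treatment and 0 of 255 over 9 for genotype, with 0.326% and 0.19% of all gene tests passing. At an unadjusted p under 0.05 there were 5 and 6, and DESeq2 called 0 in both. A miss in this design does not show that the members were alike.

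The lowest adjusted p for treatment, 0.147, was that of Slc16a3 in fibroblasts. With vehicle it was at 1.6 CPM (3 UMIs), and with 4NQO at 24.3 and 19.5 in BPK and 18.7 in PK glands, so the vehicle library was below all 3 libraries given 4NQO. Its log2 difference between BPK 4NQO and vehicle was 3.52 ± 1.04. In fibroblasts 27 of 29 members tested were on the higher side under 4NQO, with a median of 0.66 on the log2 scale, against 0.06 for all genes in that class. In macrophages the median was 0.80 with 15 of 24 on the higher side, and in basal and alveolar cells it was 0.02 and 0.04. In hormone-sensing cells 25 of 32 were on the higher side under 4NQO, with a median of 0.23. For genotype, 25 of 32 there were on the higher side in BPK, with a median of 0.30. The share of all genes on the higher side was not counted, and the vehicle group had 1 library. For genotype, the lowest adjusted p values were those of Pgk1, 0.18 in epithelium, with 1.2 CPM for PK 4NQO against 2.4 and 16.0 for the BPK 4NQO pair. For this gene the BPK 4NQO replicates lay further apart than replicate 1 and PK 4NQO did. Epithelial Hif1a was at 86.6, 89.5, 86.0 and 194 CPM, so that its spread within BPK 4NQO exceeded every difference between groups. Epithelial Ldha, at 326, 311, 378 and 281 CPM, had overlapping groups.

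Between the tumor and the BPK 4NQO glands, of 188 member tests in 6 classes 28 passed, 27 higher and 1 lower, and 5.33% of all gene tests passed. DESeq2 called 49. In the epithelium taken as a whole 18 members were higher and 1 lower of 34, that is 55.9% against 15.9% of all genes, and the median member differed by 2.24 on the log2 scale against -0.13 for all genes.

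The lactate exporter Slc16a3 (ENSMUSG00000025161, chr11:120948480-120960868, mm10) showed the largest epithelial change. The glands held 0.7, 1.2, 2.0 and 3.0 CPM and the tumor 178, a log2 difference of 6.68 ± 0.79 with an adjusted p of 9.6e-15. Enolase, Eno1 (chr4:150236721-150248879), was at 70.2, 46.9, 73.1 and 73.4 CPM in the glands and 1159 in the tumor (4.45 ± 0.96, adjusted p = 9.8e-05). The tumor lay above every gland library for each member named in this paragraph, and the share of all genes for which this holds was not counted. Pgk1 (chrX:106187100-106203699) was at 3.3, 1.2, 2.4 and 16.0 CPM in the glands and 97.8 in the tumor (4.05 ± 0.67). Its difference was 3.26 without BPK 4NQO replicate 1 and 5.67 without replicate 2. Car12 (chr9:66713686-66766845), a carbonic anhydrase of the cell surface that handles acid, was at 4.9, 2.7, 4.5 and 12.9 CPM in the glands and 70.4 in the tumor (3.60 ± 0.65, and 4.30 without replicate 2). Aldoa, the member with the highest mean CPM in BPK 4NQO epithelium, was at 339 to 488 CPM in the glands and 1647 in the tumor. It did not pass in edgeR (2.28 ± 1.00, adjusted p = 0.107), whereas DESeq2 called it (6.6e-05). Other enzymes with many UMIs rose. Ldha (chr7:46841475-46855627) was at 281 to 378 CPM in the glands and 2426 in the tumor (3.32 ± 1.03, adjusted p = 0.0126), Pkm, the pyruvate kinase gene, at 257 to 363 and 2244 (3.17 ± 1.02), and Pgam1 at 72.3 to 111 and 937 (3.57 ± 0.92). Bnip3, a mitophagy receptor of the mitochondrial membrane, was at 13, 15.2, 24.3 and 22.8 CPM in the glands and 154 in the tumor (3.17 ± 0.71, adjusted p = 0.00024).

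The other members that passed in epithelium were Car9, Slc2a1, Gapdh, Tpi1, Adm, Pfkl, P4ha1, Pfkp, Ankrd37 and P4ha2, by 2.08 to 3.72 on the log2 scale. Car9, the other acid-handling anhydrase at the cell surface, was low throughout, at 0.5 to 1.2 CPM in the glands and 9.3 in the tumor. Without replicate 1 its difference was 4.68 and that of Ankrd37 3.08, and without replicate 2 those of P4ha1 and P4ha2 were 3.03 and 2.69. All 5 members of lower glycolysis passed, as did both collagen hydroxylases and both carbonic anhydrases. Slc2a3 was the 1 member that passed as lower, by a log2 difference of -2.53 ± 0.92, from 3.0 and 6.2 CPM in the BPK 4NQO pair to 0.5 with the tumor. Its adjusted p was 0.0396, and 0.0509 with other size factors. Pfkfb3 (-2.12 ± 0.84) and Aldoc (-2.04 ± 0.89) were also lower but did not pass in edgeR (adjusted p = 0.0669 and 0.107). DESeq2 called both (0.0018 and 0.0011), among 28 members that it called in epithelium. The sensor genes did not pass in edgeR, and DESeq2 called Egln1 (adjusted p = 0.0253) and Egln3 (0.0059). Hif1a was at 168 CPM in the tumor, between 86.0 and 194 in the BPK 4NQO replicates, Egln1 differed by 1.5 ± 0.63 and Egln3 by 1.47 ± 0.70. Of the hexokinases, Hk1 was at 31.2 CPM and Hk2 at 48.0 in the tumor, the first below the 4 glands and the other within their range.

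**Figure D2:**
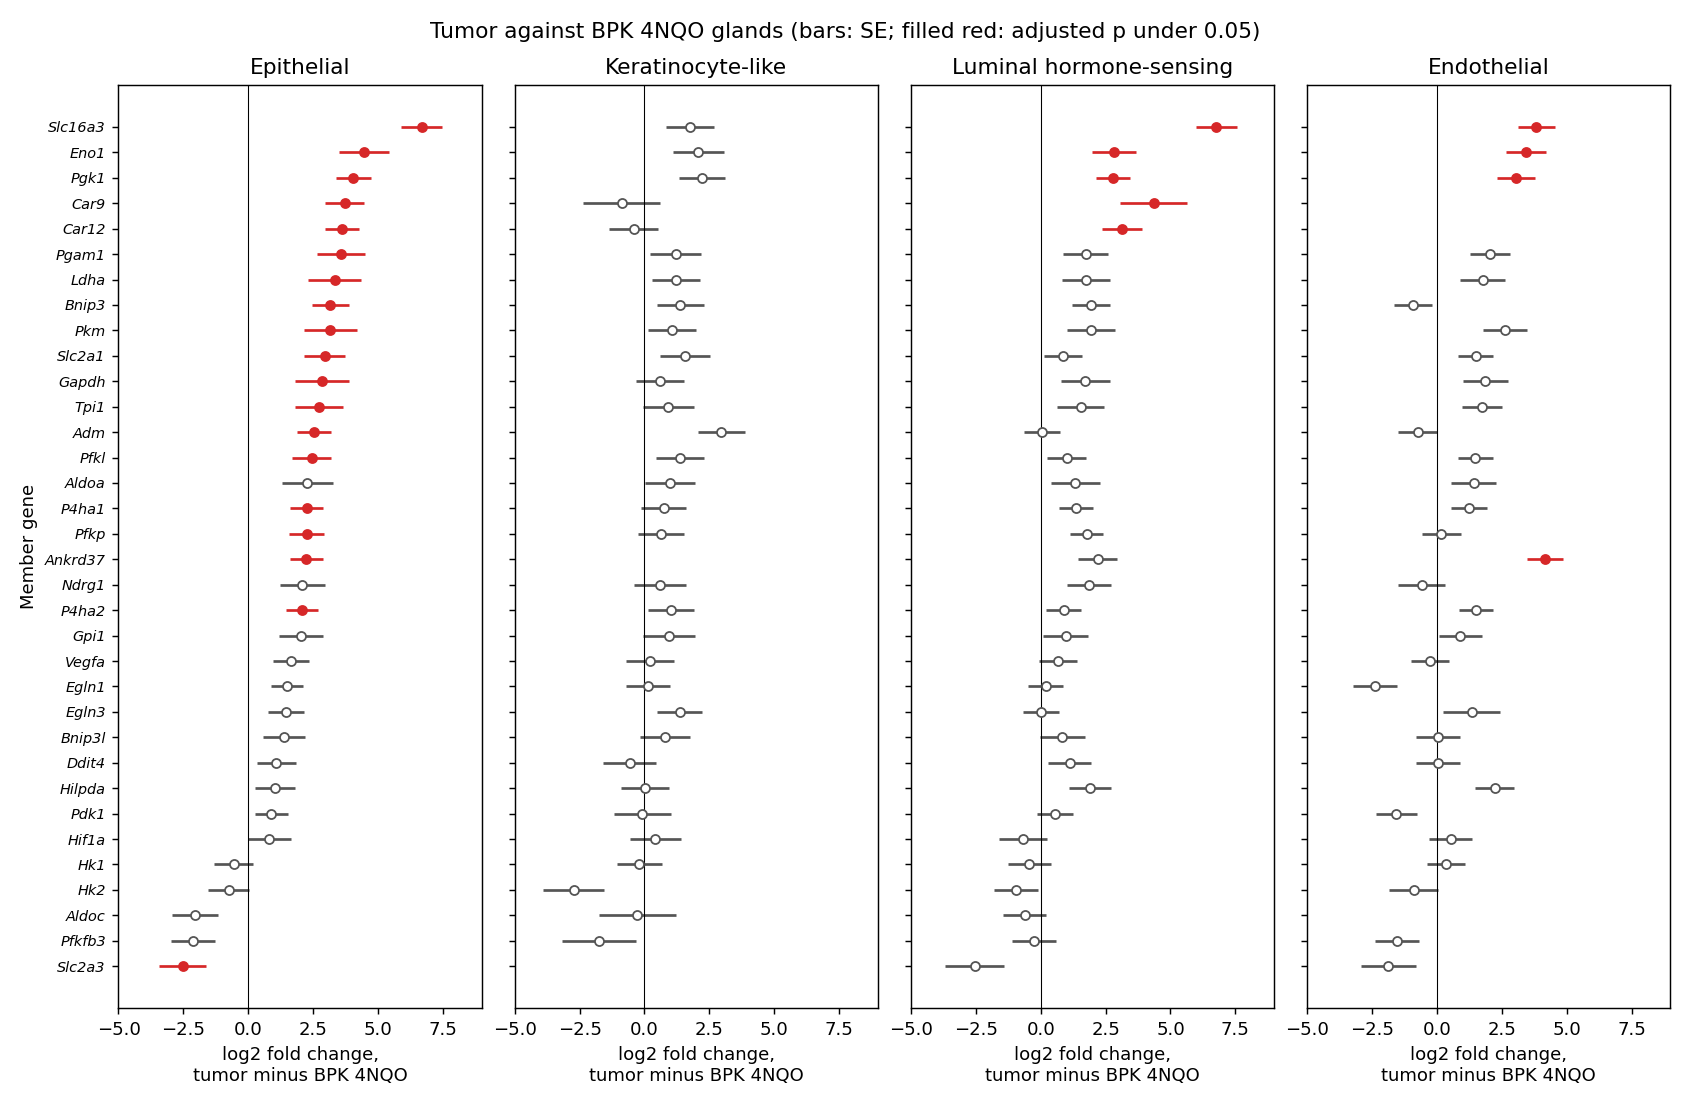
Log2 fold change of each member between the tumor and the BPK 4NQO glands, with its SE, in all epithelial cells, keratinocyte-like cells, hormone-sensing cells and endothelial cells. Filled red points passed an adjusted p of 0.05; in all epithelial cells most members lie between 1 and 5, and in keratinocyte-like cells no point is filled.

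The lineage makeup of the epithelium differed between these tissues, since 1048 of the 1510 epithelial cells of the tumor were keratinocyte-like, so lineages were also compared one by one. Within keratinocyte-like cells 0 of 32 members passed between the tumor and BPK 4NQO, with 0.736% of all genes passing, 4 members at an unadjusted p under 0.05 and 2 called by DESeq2. The median member differed by 0.77, and all genes by -0.07. Adm came nearest, at 9.0 and 22.2 CPM (4 and 7 UMIs) in the glands against 98.7 for the tumor, a difference of 2.97 ± 0.91 with an adjusted p of 0.0964 in edgeR and 0.0129 in DESeq2. Without BPK 4NQO replicate 2 the difference was 3.80. Ldha was at 2175 and 572 CPM in BPK 4NQO 1 and 2 and at 2700 in the tumor, and Gapdh at 2962, 1055 and 2574 CPM, and for both genes replicate 1 lay nearer the tumor than replicate 2. Car12 was at 103, 143 and 77.4 CPM and Car9 at 36.0, 6.4 and 10.1 (16, 2 and 399 UMIs).

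Keratinocyte-like cells were compared with hormone-sensing cells of the same 3 libraries, a comparison added after the data were seen. 18 of 34 members passed, 16 higher and 2 lower, or 52.9% against 17.9% of all genes. Slc16a3 was at 80.9, 63.6 and 204 CPM in keratinocyte-like cells of BPK 4NQO 1, BPK 4NQO 2 and the tumor, against 0.5, 0 and 33.4 in hormone-sensing cells (5.24 ± 1.05, adjusted p = 0.014, and 4.22 to 7.68 when a library was left out). Car12 differed by 4.68 ± 0.74, and by 5.94 without the tumor and 3.94 without BPK 4NQO replicate 1. Slc2a1 was at 92.1, 156 and 304 CPM against 25.2, 49.4 and 59.3 (1.88 ± 0.28, adjusted p = 0.0041). Pfkp (2.27 ± 0.36), Eno1 (2.14 ± 0.33), P4ha1 (1.80 ± 0.34), Pgam1 (1.79 ± 0.26) and Ldha (1.68 ± 0.33) were also higher. The 2 members that were lower were Pfkfb3 (-2.53 ± 0.40, -1.90 without the tumor) and Aldoc (-1.94 ± 0.30). The count was 11 without BPK 4NQO replicate 1, 13 without replicate 2 and 26 without the tumor. Without 1 of the BPK 4NQO replicates Gapdh, Gpi1, Ldha, Pfkl, Egln1, Pkm, Ndrg1 or Vegfa lost the call, and Egln3 lost it without the tumor. Keratinocyte-like cells also held more UMIs per cell than hormone-sensing cells in BPK 4NQO 1 (a median of 9108.5 against 6660.0) and in the tumor (37598.5 against 15300.0), but not in BPK 4NQO 2 (4201.0 against 4630.0). Of the 12 proliferation genes listed, 8 were higher in keratinocyte-like cells and 0 lower, and the part of proliferation in the members' values was not tested.

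**Figure D3:**
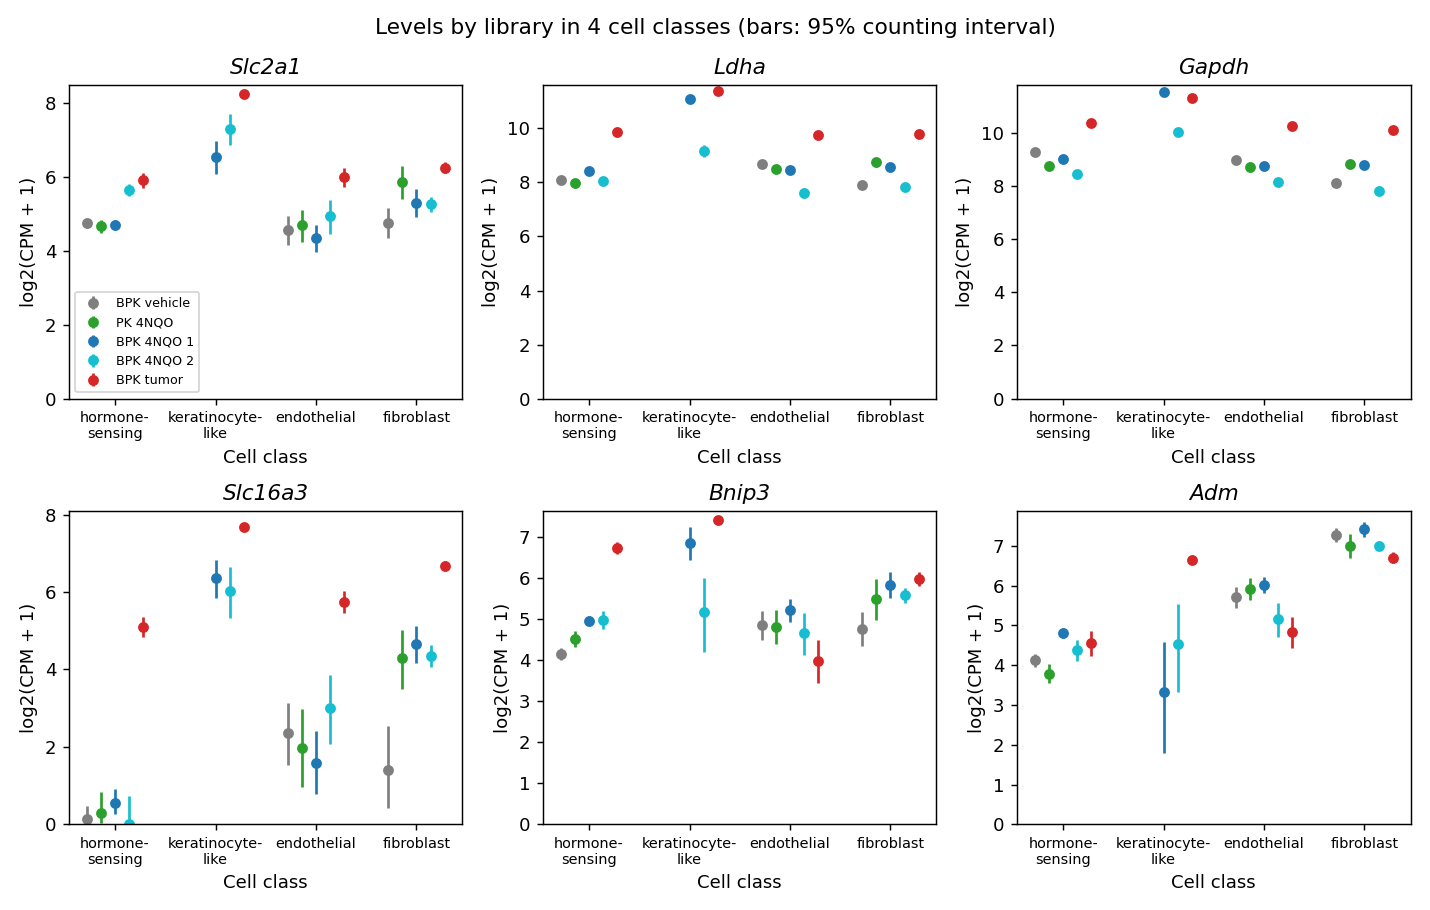
Level of 6 members as log2(CPM + 1) in 4 cell classes, 1 point per library with its 95% counting interval. In keratinocyte-like cells Ldha and Gapdh of BPK 4NQO 1 lie near the tumor (2175 and 2700, 2962 and 2574 CPM) and those of BPK 4NQO 2 lower (572 and 1055), and Bnip3 and Adm in endothelial cells are lowest in the tumor.

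Members also differed in cell classes of the tumor that are not its dominant lineage. In hormone-sensing cells 5 of 34 passed, all higher, or 14.7% against 2.38% of all genes. Slc16a3 was at 0.5 and 0 CPM (8 and 0 UMIs) in the BPK 4NQO pair against 33.4 (116 UMIs) for the tumor, a difference of 6.77 ± 0.81 (adjusted p = 1.2e-13) for which no fold is given without replicate 1, since replicate 2 then stands alone with no UMI. Car9 (4.35 ± 1.28), Car12 (3.13 ± 0.76), Eno1 (2.81 ± 0.85) and Pgk1 (2.79 ± 0.66) were the others. Car9 was 5.31 without replicate 1, and Pgk1 was 1.95 and 4.77 without replicates 1 and 2. Adjusted p values for Car9 and Pgk1 under DESeq2 were 0.106 and 0.663.

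In endothelial cells 4 of 31 passed, all higher, 12.9% against 4.35% of all genes. Ankrd37, a small ankyrin-repeat protein known as a HIF1 target, was at 5.9, 6.5, 4.3 and 1.6 CPM in the glands and 55.5 in the tumor (4.17 ± 0.71, adjusted p = 1.8e-06, and 5.24 without replicate 1). Slc16a3 was at 4.1, 3.0, 2.0 and 7.1 CPM and 52.9 in the tumor (3.83 ± 0.71, and 3.06 and 4.76 without replicates 1 and 2). Eno1 (3.42 ± 0.78, 4.06 without replicate 1) and Pgk1 (3.06 ± 0.73, 1.99 and 5.38 without replicates 1 and 2, adjusted p = 0.228 under DESeq2) were the others. In fibroblasts 0 of 31 passed, with 0.689% of all genes passing, 6 members at an unadjusted p under 0.05 and 2 under DESeq2, and in macrophages 0 of 26, with 0.347%, 2 and 0. In fibroblasts Eno1 was nearest, at 60.8 and 45.6 CPM in the BPK 4NQO pair against 506 for the tumor (3.46 ± 0.85, adjusted p = 0.0685).

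Keratinocyte genes were present in every other class of the tumor. The 13 keratinocyte markers summed to 119 to 174 CPM in hormone-sensing cells of the glands and 2206 CPM in those of the tumor, where 1 of them was at 0. In endothelial cells they summed to 18.8 to 32.4 CPM in the glands and 689 CPM in the tumor, with 2 at 0. To gauge this background, 4 genes with high levels in keratinocyte-like cells (Krt5, Krt14, Krt6a and Krtdap), of which Krt5 and Krt14 are not among the 13 markers, were used. Their level in other classes of the tumor relative to keratinocyte-like cells had a median of 4.94% in hormone-sensing cells (3.59% to 16.95%), 4.64% in fibroblasts, 3.92% in endothelial cells and 5.29% in macrophages. At the median share, all 5 members that were higher in hormone-sensing cells stood above the level that such RNA alone would give, by 3.31 times for Slc16a3, 3.69 for Car12, 5.93 for Eno1, 11.1 for Pgk1 and 12.6 for Car9. At the highest of the 4 shares, that level was not exceeded by Slc16a3 (0.964 times), was met by Car12 (1.08), and was exceeded by Eno1 (1.73), Pgk1 (3.23) and Car9 (3.69). In endothelial cells the median share gave 6.60 times for Slc16a3, 7.67 for Eno1, 9.98 for Pgk1 and 99.6 for Ankrd37. The 14 genes of dissociation and heat shock had medians of -0.71 in hormone-sensing, -1.48 in epithelial and -1.61 in endothelial cells. In edgeR 0, 0 and 2 of them passed, 0, 3 and 4 were at an unadjusted p under 0.05, and DESeq2 called 2, 6 and 4. Their part in the members' values was not tested.

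Whether the tumor difference itself depended on the class was tested in 1 model of hormone-sensing cells, fibroblasts, endothelial cells and macrophages, added after the data were seen. 9 of 136 member tests passed, or 6.62% against 1.86% of all gene tests. Endothelial cells stood below the mean of the other classes for 5 members, 14.7% against 1.51% of all genes. Bnip3 was at 27.8, 27.2, 36.1 and 24.3 CPM in endothelial cells of the glands and 14.8 in the tumor, whereas in hormone-sensing cells it was at 16.8, 21.7, 29.95 and 30.5 in the glands and 105 in the tumor. Egln1 in endothelial cells was at 50.1, 46.6, 52.3 and 95.7 CPM and 12.7 in the tumor, below every gland. Pdk1, Ddit4 and Ndrg1 were the other 3, and Pdk1 and Ndrg1 were also below every gland in the tumor, at 9.5 and 188 CPM. The share of all genes below every gland was not counted. Between the tumor and BPK 4NQO within endothelial cells, none of these 5 passed in edgeR. The differences there were -2.40 ± 0.85 for Egln1 (adjusted p = 0.0857), -1.56 ± 0.78 for Pdk1, -0.93 ± 0.73 for Bnip3 and -0.59 ± 0.90 for Ndrg1. For Ddit4 the difference was 0.03 ± 0.86, so no fall was seen between the tumor and BPK 4NQO in endothelial cells. Of the 5, DESeq2 called Egln1 alone (0.0461).

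The tumor held 48 neutrophils and the glands 2 in all, so they could not be compared with a gland. All 8 neutrophil markers were present there, and the 13 keratinocyte markers summed to 1866 CPM with 6 at 0. They held Slc16a3 at 839 CPM (95% counting interval 620 to 1109, 49 UMIs), above the 204 of keratinocyte-like cells. Hilpda was at 924 CPM (694 to 1206), Bnip3 at 377 (236 to 570) and Egln3 at 291 (170 to 466), each above the level in keratinocyte-like cells, which were at 94.0, 168 and 94.0. Car9, Egln1, Adm, Pgk1, Aldoc and P4ha2 had no UMI there, which allows up to 63.1 CPM each. Intervals cover counting error only.

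Among other genes of the pathway that are not members, 9 of 30 other hypoxia-induced genes were higher and 2 lower in tumor epithelium, where 15.9% of all genes passed, including Fam162a (4.61) and Ero1l (2.94), with Edn1 (-4.10) and Stc2 (-3.18) lower. Their median was 0.52. In edgeR 0 of 7 HIF pathway genes, 0 of 8 of the pentose phosphate pathway and 0 of 22 of pyruvate dehydrogenase and the TCA cycle passed, with medians of -0.28, 0.61 and 0.73. At an unadjusted p under 0.05 there were 0, 1 and 1, and DESeq2 called 0, 1 and 3. With 7 or 8 genes in a list and 15.9% of all genes passing, a count of 0 says little. Of 20 other glycolysis isoenzymes 3 were higher and 3 lower, and Pdk2 fell by -4.22. Of 11 ATF4 targets 5 and of 12 proliferation genes 9 were higher, with 0 lower in either list.

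Car9 is a classical marker of hypoxic tumor regions, so tumor epithelial cells with and without a Car9 UMI were compared as a description within this 1 library. Cells were thinned to 10000 UMIs each, which left out 242 shallower cells of 1510, and 107 of the remaining 1268 (8.44%) held a Car9 UMI. Of 32 other members with enough UMIs, 16 were at least 1.5-fold higher in the Car9 cells and 0 lower, whereas 7.81% of all genes were at least 1.5-fold higher and 17% lower. The median ratio was 1.51, against 0.965 for all genes. Bnip3 was at 3.92 and 1.32 UMIs per 10000 in cells with and without Car9, a ratio of 2.96 (counting interval 2.65 to 3.30). Adm had a ratio of 2.72 (2.34 to 3.16), Egln1 2.43 (1.86 to 3.13), Egln3 2.06 (1.73 to 2.44) and Ankrd37 2.02 (1.31 to 3.01). The abundant glycolytic enzymes differed less, with ratios of 1.36 for Pkm, 1.48 for Ldha and 1.52 for Gapdh. In all, 25 of the 32 members had intervals above 1. Among the rest, Hif1a (0.930, 0.786 to 1.09) and Hilpda (0.873, 0.716 to 1.06) had intervals that include 1.

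Among keratinocyte-like cells alone, 84 of 931 held Car9, and 9 of 32 members were at least 1.5-fold higher and 0 lower, with 9.38% and 14.7% of all genes. This split was added after the data were seen. Adm (2.23), Bnip3 (2.11), Pdk1 (2.02), Egln3 (1.72), P4ha2 (1.68), Egln1 (1.67), Vegfa (1.55) and Pfkp (1.52) were above 1.5-fold with intervals above 1. Pfkfb3 was at 1.95 with an interval that includes 1 (0.92 to 3.75), and Ankrd37 was at 0.964 (0.50 to 1.70). Ldha was at 1.32 and Pkm at 1.28. Hif1a was at 1.22, with an interval (1.04 to 1.42) above 1, unlike in all epithelial cells. Cells are not replicates, and these intervals leave out variation between tumors.

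**Figure D4:**
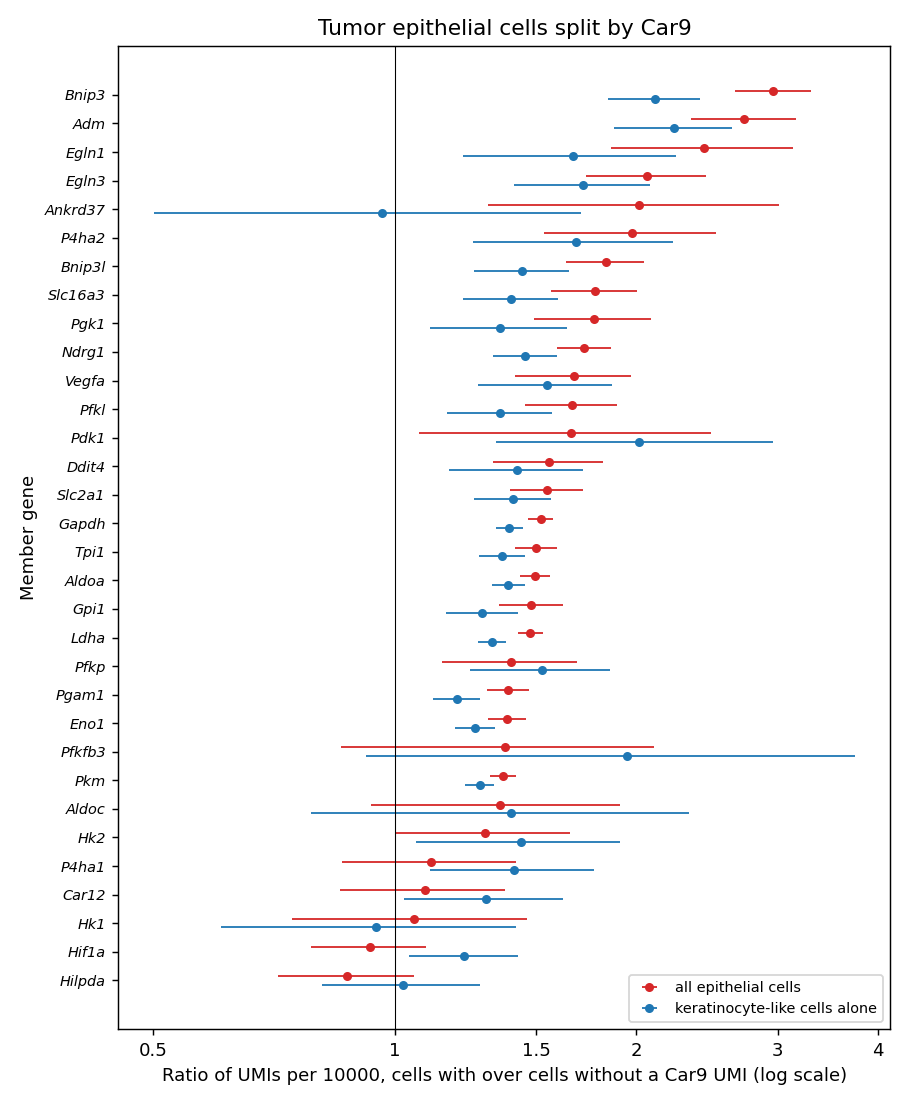
Ratio of UMIs per 10000 between tumor epithelial cells with and without a Car9 UMI for each member, with 95% counting intervals, on a log axis. Red points are all epithelial cells and blue points keratinocyte-like cells alone; Bnip3 and Adm are rightmost in red, and most blue points lie closer to 1.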

How the data were processed

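UMI counts per gene and cell barcode were deposited by the authors, made with Cell Ranger 3.0.2 (PK 4NQO) or 5.0.1 (the other libraries) on mm10, per the file headers. Members and gene lists were chosen with earlier results of these data known. Barcodes with at least 300 genes and at most 20% mitochondrial counts were kept after scrublet removed 0.8% per 1000 barcodes as doublets. Cells were classed by marker genes that hold no member, and counts were summed per library and class. Classes with at least 30 cells were tested with edgeR 4.0.16 (quasi-likelihood F test, TMM factors, R 4.3.3), with Benjamini-Hochberg adjustment over all genes of the class, a call at an adjusted p under 0.05. Nothing in the labels shows whether libraries came from separate animals, so p-values measure the spread between these libraries, which may be technical. For treatment, genotype and tumor that spread came from the BPK 4NQO pair alone. Results were recomputed with DESeq2 1.42.0, with RLE size factors, without the expression filter, with other limits on cells and with libraries left out. Not every member with a call is given, nor each with all its values. Those described were picked by fold, at most 8 per class at 30 CPM or more on average in a group. The member with the most UMIs of each role group was added. Other genes named were chosen after their values were seen. The test was checked on simulated counts. Promoters came from RefSeq (GRCm38.p6).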

Additional observations from a re-analysis of the deposited data

Results flagged for a closer look

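The tumor difference (tumor against the 4 gland libraries) differed between hormone-sensing cells, fibroblasts, endothelial cells and macrophages in 9 member tests of the difference itself (edgeR quasi-likelihood F test). Slc16a3 and Bnip3 passed in more than 1 class each. Each value is the log2 difference in 1 class minus the mean of the other 3. In hormone-sensing cells Slc16a3 was 3.87 ± 0.67 above (adjusted p = 0.0036) and Bnip3 1.58 ± 0.33 above (0.0117). At the highest of the 4 shares of keratinocyte RNA, Slc16a3 in these tumor cells did not exceed the level that such RNA alone would give (0.964 times). In endothelial cells Egln1 (-2.45 ± 0.45, adjusted p = 0.0041), Bnip3 (-2.42 ± 0.42, 0.0027), Pdk1 (-2.32 ± 0.57, 0.0298), Ddit4 (-2.19 ± 0.56, 0.0366) and Ndrg1 (-2.02 ± 0.45, 0.0175) were below. In macrophages Aldoc was 2.91 ± 0.52 above (adjusted p = 0.0048), from 1.63, 5.70, 6.29 and 4.22 CPM in the glands to 26.1 in the tumor, and Slc16a3 was -2.56 ± 0.61 (0.0366). That value is not a fall: within macrophages Slc16a3 differed by 1.78 ± 0.99 between the tumor (100 CPM) and BPK 4NQO (a mean of 31.6 CPM), without passing. Without PK 4NQO the adjusted p was 0.0833 for Pdk1, 0.121 for Ddit4, 0.0726 for Ndrg1 and 0.103 for Slc16a3 in macrophages. Ddit4 was at 0.0727 without BPK vehicle, and Slc16a3 in macrophages at 0.117 without BPK 4NQO replicate 2 and 0.122 with DESeq2.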

How the results depend on the processing

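Of 2571 values of members under an alternative, 2263 kept direction and side of the threshold, 286 passed no more, 14 moved and 8 changed sign. No member passed for treatment or genotype under any of the settings tried. The tumor count of 28 was 49 with DESeq2 and 27 to 30 otherwise. The class count of 164 was 115 without replicate block and 130 to 149 with a library left out. Without PK 4NQO or a BPK 4NQO replicate the T cells dropped out, so fewer tests were made. For keratinocyte-like against hormone-sensing cells, the count of 18 was 11 to 26 with a library left out, and that of member tests in which the tumor difference depended on class, 9, was 5 to 13. The 16 members higher in Car9 cells were 9 in keratinocyte-like cells alone. Changes of sign were in the class comparison. With a library left out, Adm in hormone-sensing cells was -0.017 (BPK 4NQO replicate 1) to 0.52, Ankrd37 there -0.91 to 0.33 (replicate 2), Pfkp in macrophages -0.55 (replicate 2) to 1.07, and Slc2a1 in fibroblasts -0.29 (PK 4NQO) to 0.33, with -0.21 without BPK 4NQO replicate 1. With at least 100 cells a class, Slc2a1 in fibroblasts was -0.10. With the tumor library added, Bnip3 in endothelial cells was -0.080 and Aldoc in macrophages 0.087. In all of these settings the mean of the other classes was taken over another set of classes. The main model held 8 classes. It held 7 without PK 4NQO or a BPK 4NQO replicate and with at least 100 cells a class, and 9 with the tumor library added. The cause of the changes of sign was not tested. No paired analysis was possible because only BPK 4NQO has a second replicate. Leaving out either BPK 4NQO replicate left no residual degrees of freedom in the 3 contrasts, so fold changes without a test are given. One tumor library, 44 and 55 keratinocyte-like gland cells, and few UMIs of Car9 limit the precision.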
